A study of Mus musculus with 20 samples.

Results

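Potassium channel genes were examined in microglia and astrocytes sorted from the injured or sham-operated mouse forebrain. Their members were all rows of the gene count table whose symbol starts with Kcn, 95 of the 39017 genes in the table, carrying 94 distinct symbols because Kcnb2 stands in 2 rows. They cover the pore-forming subunits and the named auxiliary subunits of potassium channels, all but one annotated as protein-coding in the mouse genome build GRCm38, and they were grouped by symbol into 8 classes. The comparison rests on 4 groups of 5 RNA-seq libraries: microglia and astrocytes of adult male C57BL/6J mice of 3 to 4 months, after lateral fluid percussion injury (FPI), a model of traumatic brain injury, or after sham surgery. No group carried a transgene. Cells were taken 7 days after surgery from the ipsilateral forebrain, and n is the number of libraries. Numbers recur in the library names: FPI astrocyte replicates 2 and 5 share one, and 3 microglia libraries (sham replicates 2 and 3, FPI replicate 1) share theirs with an astrocyte library (sham replicates 4 and 5, FPI replicate 3). The paper states 5 sham and 5 FPI animals for each cell type, and both cell types were isolated concurrently. Whether an equal number means the same animal is not given in the sources used here. If it did, the FPI astrocyte libraries would come from 4 animals, against the stated 5. The fits over 20 libraries treat all as independent. In microglia, replicates 4 and 5 of both groups carry library names of another series, with the suffix J-A, which no astrocyte library carries. What the series stands for is not given in the sources used here. Microglia had been gated as CD11b+ with intermediate CD45, a gate that border-associated macrophages can also enter, and astrocytes by the surface antigen ACSA-2.

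Potassium channels set the resting potential of glia and decide how they take up or release potassium. Astrocytes keep a strongly negative membrane potential through inward rectifiers, above all Kir4.1 (Kcnj10), and clear the potassium that active neurons release. Microglia have few channels by comparison: THIK-1 (Kcnk13) carries their resting current and responds to purines, Kir2.1 (Kcnj2) and Kv1.3 (Kcna3) are known from activated cells, and potassium efflux is a trigger of the NLRP3 inflammasome.

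The 20 libraries held 5623349 to 13110857 counted reads each. The 6 microglia markers (Cx3cr1, Tmem119, P2ry12, Csf1r, Itgam, Aif1) summed to between 11287 and 17535 CPM (counts scaled to a common library size of 1000000) in the microglia libraries and between 4.07 and 70.5 CPM in the astrocyte libraries. The 7 astrocyte markers (Aqp4, Aldh1l1, Gfap, Slc1a3, Slc1a2, Gja1, Aldoc) summed to 240 to 589 CPM in microglia and to 9651 to 30038 CPM in astrocytes. The astrocyte libraries also held markers of other cells: oligodendrocyte markers summed to 431 to 5510 CPM, pericyte and smooth muscle markers to 381 to 8709 CPM, and oligodendrocyte precursor markers to 324 to 1476 CPM. The library name of FPI astrocyte replicate 5 has the suffix M, which is otherwise that of the microglia libraries outside the J-A series. In this library the microglia markers summed to 70.5 CPM and the astrocyte markers to 14844 CPM, so it sits with the astrocytes as labelled. CPM are on the TMM scale, edgeR's adjustment for library composition, and levels of different genes are compared only as CPM per kb of exon.

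Of the 95 members, 88 had at least 1 read and 7 (Kcnk15, Kcnmb3, Kcna10, Kcnk16, Kcnj1, Kcns2, Kcne1) had none. The filter on low counts kept 55 over all 20 libraries, 15 within microglia and 48 within astrocytes. Of these, 11 passed in both cell types, 37 in astrocytes but not in microglia and 4 (Kcnj9, Kcnn4, Kcnk6, Kcnk12) in microglia but not in astrocytes. The other 40 were not tested between the cell types, 33 of them with some reads, and Kcns1 among them was tested in astrocytes only. Kcnh4 had the most reads of those tested nowhere, 131 in the microglia libraries, 78 of which came from FPI replicate 1.

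Among the members, 4 inward rectifier genes that were tested lie in neighbouring pairs, and each of these pairs holds 1 gene higher in each cell type. A further pair, Kcnj5 and Kcnj1 on chromosome 9, was not tested. On chromosome 1, Kcnj9 (chr1:172320501-172329318, minus strand) and Kcnj10 (chr1:172341210-172374085, plus strand) point away from each other with 11891 bases between them. On chromosome 11, Kcnj16 (chr11:110968033-111027968) and Kcnj2 (chr11:111066164-111076821) follow each other on the plus strand, 38195 bases apart. Kcnj9 and Kcnj2 were higher in microglia, and Kcnj10 and Kcnj16 were higher in astrocytes. The 250 bases before the start of each gene come from the RefSeq promoter table (GRCm38.p6) and are printed to show how the neighbours differ, 5′ to 3′ on the gene's strand, with CpG dinucleotides in capitals. The windows are chr1:172329323-172329572 (minus) for Kcnj9, chr1:172340960-172341209 (plus) for Kcnj10, chr11:110967783-110968032 (plus, the first of 4 listed starts) for Kcnj16 and chr11:111065914-111066163 (plus) for Kcnj2.
Kcnj9: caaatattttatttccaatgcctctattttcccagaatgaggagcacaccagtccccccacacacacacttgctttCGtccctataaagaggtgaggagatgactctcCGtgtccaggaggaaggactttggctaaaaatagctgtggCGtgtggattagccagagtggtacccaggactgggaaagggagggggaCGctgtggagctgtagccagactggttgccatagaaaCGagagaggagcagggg
Kcnj10: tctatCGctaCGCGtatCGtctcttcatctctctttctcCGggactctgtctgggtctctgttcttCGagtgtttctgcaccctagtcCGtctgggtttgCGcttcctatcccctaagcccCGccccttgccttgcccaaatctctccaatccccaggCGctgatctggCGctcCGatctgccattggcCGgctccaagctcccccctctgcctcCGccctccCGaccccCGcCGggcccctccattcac
Kcnj16: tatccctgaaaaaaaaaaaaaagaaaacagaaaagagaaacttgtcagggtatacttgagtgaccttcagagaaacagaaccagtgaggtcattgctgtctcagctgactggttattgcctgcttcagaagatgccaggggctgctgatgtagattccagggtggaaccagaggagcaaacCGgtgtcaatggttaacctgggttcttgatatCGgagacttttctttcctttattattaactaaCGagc
Kcnj2: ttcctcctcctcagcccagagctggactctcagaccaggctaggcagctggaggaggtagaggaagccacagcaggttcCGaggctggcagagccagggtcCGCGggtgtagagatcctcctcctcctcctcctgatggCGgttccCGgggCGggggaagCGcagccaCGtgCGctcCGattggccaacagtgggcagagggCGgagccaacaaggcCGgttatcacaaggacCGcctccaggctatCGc
The sequences hold 5 CpGs (Kcnj9), 17 (Kcnj10), 3 (Kcnj16) and 14 (Kcnj2), so that within each pair the microglial gene is the poorer in 1 case and the richer in the other. Exact words of 3 kinds were sought on both strands of the same 250-base windows, with no overlap between matches in the members: GAGGAAGT as a core of the macrophage factor PU.1, ACAATG as a core of SOX factors, and TATAAA. The PU.1 word was in none of the 7 microglia-higher genes that have a window and in 2.79% of the 27025 genes of the table. The SOX word was in 3 of 31 astrocyte-higher genes with a window, Kcnk1 among them, and in 12.2% of all genes. The TATA word was found in the Kcnj9 window, in 1 of the 4 windows of Kcnj16, and in 14.3% of all genes. Whether these starts were the ones used in the sorted cells was not measured.

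Most tested potassium channel genes differed in level between microglia and astrocytes, the larger number being higher in astrocytes. Of the 15 members that passed the filter within microglia, 11 also passed it within astrocytes. Summed over all members, the level was 567 ± 37.1 CPM in the 10 microglia libraries (range 517 to 644) and 1957 ± 330 CPM in the 10 astrocyte libraries (1514 to 2582), with no overlap. By edgeR's quasi-likelihood test over all 20 libraries, with calls at an adjusted p below 0.1 and an absolute log2 fold change above 0.6, 9 of the 55 tested members were higher in microglia and 44 were higher in astrocytes. Among all 15077 genes tested, 27.1% were called higher in microglia and 37.2% higher in astrocytes. Kcnc2 and Kcnab3 were called in neither direction. The median log2 fold change (microglia over astrocytes) of the members was -4.74, or -4.72 with the members that had no read in microglia set to their bound, against -0.13 for all genes tested. Because 37 members passed the filter in astrocytes alone, these counts describe which members were detectable and where. Of the 11 that passed in both cell types, Kcnj2, Kcnd1, Kcna3, Kcnk13 and Kcnma1 were called higher in microglia. The others, Kcnj10, Kcnj16, Kcnj12, Kcna1, Kcnip3 and Kcnab2, were called higher in astrocytes. In 5 members all 10 microglia libraries lay above all 10 astrocyte libraries, and in 25 all lay below, against 16.2% and 21.2% of all genes tested. RNA was compared per library, so a lower number of cells expressing a gene and less RNA per cell cannot be told apart.

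**Figure D1:**
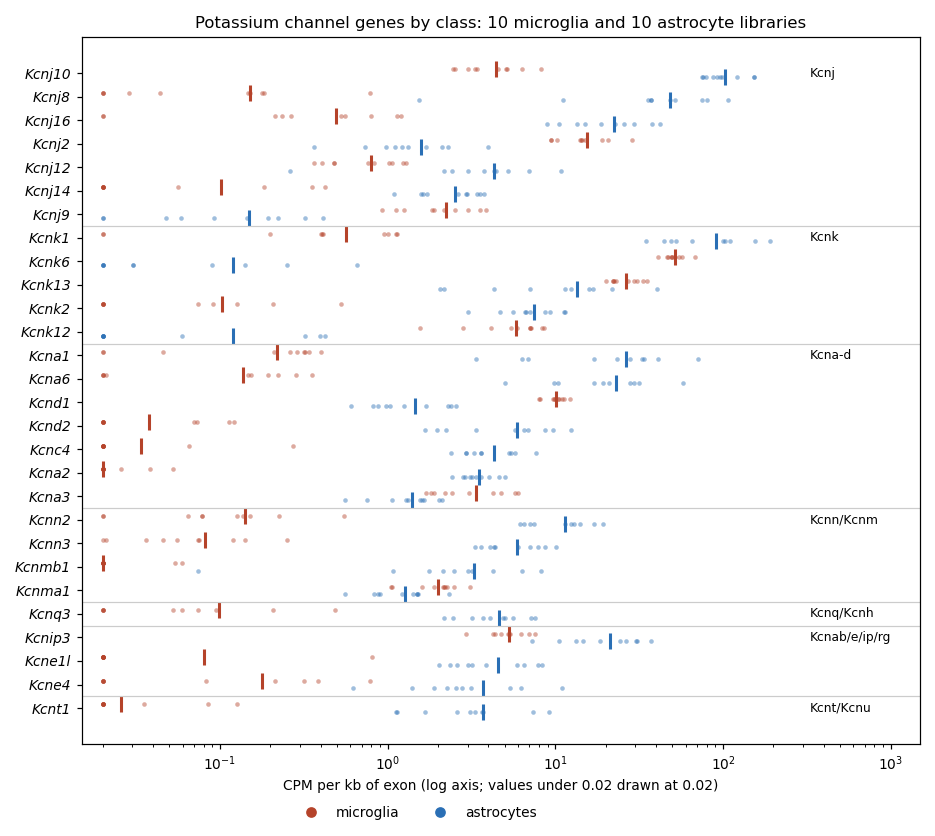
Level of members that reached a mean of 2 CPM per kb in either cell type, by class (log axis, CPM per kb of exon): small points are libraries (10 per cell type) and vertical ticks are means. Kcnk6, Kcnk13, Kcnj2 and Kcnd1 lead in microglia at 51.5, 26.6, 15.5 and 10.1 CPM per kb, and Kcnj10, Kcnk1 and Kcnj8 lead in astrocytes at 103, 90.5 and 48.6.

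Per length of transcript, the classes took different shares in the cell types. The tandem-pore channels (Kcnk) held 63.2% of the summed CPM per kb of all members in microglia and 25.8% in astrocytes. Their summed level was nevertheless lower in microglia, 84.6 CPM per kb against 115 in astrocytes. The totals over all members were 134 and 446 CPM per kb. Inward rectifiers (Kcnj) held 18.2% in microglia and 41.3% in astrocytes, and the voltage-gated Kcna to Kcnd genes held 10.9% and 16.1%. Kcnj8, which is part of the astrocytic Kcnj share, ranged from 3.92 to 274 CPM over the astrocyte libraries. It was lowest and highest in the same libraries as the pericyte and smooth muscle marker sum. The part of those cells in the share was not tested. Every other class was under 8% in either cell type, with the auxiliary subunits at 4.72% in microglia and 7.35% in astrocytes.

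Of the 15 inward rectifiers, 8 were tested, 2 were called higher in microglia and 6 were called higher in astrocytes. Among all genes tested, 27.1% were called higher in microglia and 37.2% higher in astrocytes. Kcnj10, which encodes Kir4.1, the main potassium conductance of astrocytes, was the most abundant member per length in astrocytes (103 CPM per kb). It ranged from 403 to 831 CPM (median 509) over the astrocyte libraries and from 13.2 to 44.7 CPM (median 21.6) over the microglia libraries, without overlap (log2 fold change -4.59, SE 0.21, adjusted p = 4.69e-14). Its microglial mean was thus 23.9 CPM, and the 7 astrocyte markers stood in microglia at 0.781% (Gja1) to 4.55% (Slc1a3) of their astrocyte level. The Kir5.1 gene Kcnj16, whose product joins Kir4.1 in heteromers, ranged from 35.3 to 166 CPM in astrocytes and from 0 to 4.77 CPM in microglia (log2 fold change -5.99, SE 0.40, adjusted p = 1.81e-11).

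Kcnj8 encodes Kir6.1, the pore of the vascular ATP-sensitive channel, and is known from pericytes and smooth muscle. It spanned 3.92 to 274 CPM over the astrocyte libraries and did not exceed 2.00 CPM in microglia (log2 fold change -8.49, SE 0.72, adjusted p = 7.23e-10). Kcnj12, Kcnj3 and Kcnj14 were likewise higher in astrocytes, with log2 fold changes of -2.44 to -4.93. The pattern was opposite for Kcnj2, the gene of Kir2.1, at 51.2 to 156 CPM in microglia and 1.99 to 21.7 CPM in astrocytes (log2 fold change 3.25, SE 0.31, adjusted p = 4.63e-09). Kcnj9, the G protein-gated subunit Kir3.3, had 3.97 to 16.5 CPM in microglia and at most 1.76 CPM in astrocytes (log2 fold change 3.91, SE 0.52, adjusted p = 7.19e-07). A stretch of 172 exonic bases of Kcnj9 lies opposite the gene Gm36937, and whether the counting used the strand was not given in the sources used here.

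In the tandem-pore class, which carries background current, 8 of 14 members were tested, with 3 higher in microglia and 5 higher in astrocytes. The shares over all genes tested were 27.1% and 37.2%. Kcnk6 (chr7:29221926-29232515) encodes TWIK-2, known in macrophages for the potassium efflux that precedes inflammasome activation. It was the most abundant member per length in microglia, at 169 to 284 CPM (median 207), against 0 to 2.72 CPM in astrocytes (log2 fold change 8.91, SE 0.46, adjusted p = 2.23e-13). Kcnk12, the gene of THIK-2, which by itself gives little current at the cell surface, was at 3.07 to 16.9 CPM in microglia and at most 0.836 CPM in astrocytes (log2 fold change 5.64, SE 0.63, adjusted p = 5.13e-08).

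Kcnk13 (chr12:99964499-100062682), the THIK-1 gene, separated the cell types far less. Microglia held 62.5 to 110 CPM (median 78.2) and astrocytes 6.39 to 126 CPM (median 37.1), so the highest astrocyte library exceeded every microglia library. The difference was called over all 20 libraries (log2 fold change 0.99, SE 0.39, adjusted p = 0.0285), but neither among the sham libraries alone (0.85, adjusted p = 0.218) nor with microglia of replicates 1 to 3 alone (0.77, adjusted p = 0.17). In the astrocyte library with 126 CPM of Kcnk13, sham replicate 4, the 6 microglia markers summed to 4.52 CPM and Kcnk6 had no read. The same library had the highest oligodendrocyte marker sum, 5510 CPM, and the part of those cells in the Kcnk13 level was not tested.

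The astrocytic tandem-pore members were led by Kcnk1 (chr8:125995170-126030685), the gene of TWIK-1, at 77.5 to 426 CPM in astrocytes and 0 to 2.53 CPM in microglia (log2 fold change -7.23, SE 0.48, adjusted p = 1.38e-11). The mechanically and lipid-gated channels TREK-1 and TREK-2, encoded by Kcnk2 and Kcnk10, followed. Kcnk2 reached 14.9 to 56.8 CPM in astrocytes and at most 2.62 CPM in microglia (log2 fold change -6.22, SE 0.53, adjusted p = 8.22e-10). Kcnk10 had 1018 reads over the astrocyte libraries and none over the microglia libraries. Set against a floor of 3 reads in each microglia library, it was at least 30.2-fold higher in astrocytes. Exons of Kcnk1 and Kcnk2 lie opposite other genes over 179 and 604 bases.

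**Figure D2:**
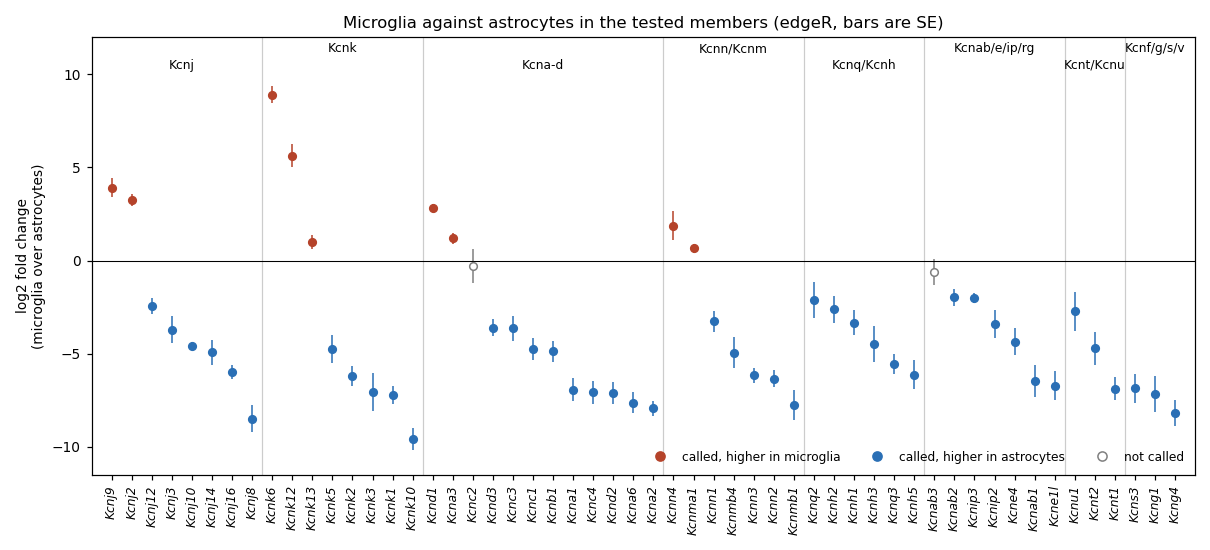
Log2 fold change (microglia over astrocytes) of tested members by class, with SE bars, from edgeR over 20 libraries; filled points were called. In 4 of the 8 classes some members lay on each side of 0. The Kcnq/Kcnh, Kcnt/Kcnu and Kcnf/g/s/v members tested were all called higher in astrocytes, and none of them passed the filter within microglia. Fitted values of members with 0 to 3 reads in microglia, such as Kcnk10 and Kcng4, depend on the prior count.

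Among the 18 rows of voltage-gated Kcna to Kcnd genes, 12 were tested. Of these, 2 were higher in microglia, 9 were higher in astrocytes and Kcnc2 was not called. All genes tested gave 27.1% higher in microglia and 37.2% higher in astrocytes. Kcnd1, the A-type channel Kv4.1, was the leading voltage-gated gene of microglia, at 42.3 to 64.6 CPM against 3.20 to 13.6 CPM in astrocytes (log2 fold change 2.84, SE 0.21, adjusted p = 7.00e-11). The other A-type genes Kcnd2 and Kcnd3 were higher in astrocytes (log2 fold changes -7.11 and -3.60). Kcna3, the Kv1.3 gene of macrophages and T cells, was low in both cell types, at 3.23 to 11.4 CPM in microglia and 1.06 to 4.00 CPM in astrocytes, which overlap (log2 fold change 1.19, SE 0.28, adjusted p = 7.43e-04).

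The Kv1 genes Kcna1, Kcna2 and Kcna6, whose channels are known from axons, were higher in the astrocyte libraries. Kcna1 and Kcna6 were highest in sham replicate 4, which had the highest oligodendrocyte marker sum and the lowest astrocyte marker sum, and the part of oligodendrocyte RNA in them was not tested. Kcna1 lay at 16.2 to 339 CPM over the astrocyte libraries and at most 1.93 CPM in microglia (log2 fold change -6.94, SE 0.61, adjusted p = 1.21e-09). For Kcna6 the astrocyte libraries spanned 30.0 to 346 CPM (a log2 difference of -7.63, SE 0.57, adjusted p = 8.22e-11), although 2355 of its exonic bases lie opposite the gene Gm26673. Kcna2 was steadier at 28.9 to 59.5 CPM in astrocytes and at most 0.624 CPM in microglia (log2 fold change -7.94, SE 0.41, adjusted p = 2.00e-13). Kcna3 and Kcna2 are also neighbours, 63075 bases apart on chromosome 3, and Kcna1 and Kcna6 are neighbours on chromosome 6 with 61944 bases between them. Of 8 pairs of neighbouring members within 100 kb, a limit chosen after the values were seen, both genes were called in 4, and in 3 of these the directions were opposite. The share of opposite directions among neighbouring pairs of all genes was not computed.

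In the calcium-activated class, 7 of 9 members were tested, 2 were higher in microglia and 5 were higher in astrocytes. The shares of all genes tested were 27.1% and 37.2%. Kcnn4, the intermediate-conductance KCa3.1 of microglia and lymphocytes, was scarce, at 0.749 to 3.37 CPM in microglia and 0 to 1.28 CPM in astrocytes (log2 fold change 1.88, SE 0.76, adjusted p = 0.0307). Kcnma1, which encodes the large-conductance BK channel, was present in both cell types. It ranged from 17.8 to 52.9 CPM in microglia and from 9.43 to 39.5 CPM in astrocytes, with broad overlap, and 1016 of its exonic bases lie opposite the gene 4930519K11Rik. Its call (log2 fold change 0.65, SE 0.22, adjusted p = 0.0115) sat just past the fold threshold. It was lost with DESeq2 (0.55), with RLE factors in place of TMM (0.55) and with at least 10 counts in every library (0.50). Leaving out sham microglia replicate 5 (0.55) or FPI astrocyte replicate 5 (0.59) also lost it. So did sham libraries alone (0.30, adjusted p = 0.417), microglia of replicates 1 to 3 alone (0.55, adjusted p = 0.0792) and astrocytes of replicates 1 to 3 alone (0.34, adjusted p = 0.14). The small-conductance genes Kcnn2 and Kcnn3 belonged to astrocytes, at 46.1 to 144 CPM and 34.8 to 106 CPM, against at most 4.10 and 2.62 CPM in microglia (log2 fold changes -6.34, SE 0.45, and -6.16, SE 0.40). Kcnmb1, the BK beta subunit of smooth muscle, was also higher in the astrocyte libraries (log2 fold change -7.76, SE 0.79, adjusted p = 1.42e-08).

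In the remaining classes no tested member was called higher in microglia. Over all genes tested, 27.1% were called higher in microglia and 37.2% higher in astrocytes. No Kcnq, Kcnh, Kcnt, Kcnu or silent subunit member passed the filter within microglia, so their directions describe where they were detectable. All 7 tested of the 13 Kcnq and Kcnh members were higher in astrocytes, led by the M-current gene Kcnq3 at 32.1 to 112 CPM against at most 7.12 CPM in microglia (log2 fold change -5.55, SE 0.55, adjusted p = 1.01e-08). Kcnh5, an EAG channel gene, was lower in microglia with a log2 fold change of -6.14. Of the 13 auxiliary members, 7 were tested and 6 were higher in astrocytes. Kcnip3, whose product binds Kv4 channels and calcium, was the one auxiliary gene with a sizeable level in both, at 10.4 to 27.0 CPM in microglia and 25.9 to 132 CPM in astrocytes (log2 fold change -2.0, SE 0.26, adjusted p = 4.93e-07). Kcne4 and Kcne1l, genes of small single-span subunits, had log2 fold changes of -4.37 and -6.72, and the beta subunit Kcnab2 had -1.97. The sodium-activated Kcnt1 reached 35.0 ± 25.1 CPM in astrocytes and 0.246 ± 0.424 CPM in microglia (log2 fold change -6.89, SE 0.63), and Kcnt2 had a log2 fold change of -4.72. All 3 tested silent subunits, Kcng1, Kcng4 and Kcns3, which act by joining other voltage-gated subunits, were higher in astrocytes. Kcng4 had 617 reads in astrocytes and 1 in microglia, a ratio of 597 after scaling for depth (exact 95% interval 107 to 23600, counting error only), and Kcns3 had 140 and 0, at least 4.55-fold higher in astrocytes.

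After FPI, 1 of the 15 members tested in microglia was called, namely Kcnj2, which was higher. Among the 12143 genes tested in microglia 2.35% were called, 2.13% as higher. Kcnj2 stood at 78.5, 51.2, 51.2, 77.6 and 55.5 CPM in sham microglia (replicates 1 to 5) and at 156, 113, 76.6, 82.1 and 103 CPM in FPI microglia. The FPI values were higher on the whole, but the lowest 76.6 CPM fell below sham replicates 1 and 4, so the groups overlapped. The means were 62.8 ± 14.05 and 106 ± 31.5 CPM (SD, n = 5), and edgeR gave a log2 fold change of 0.78 with an SE of 0.19 (adjusted p = 0.0419). The call was held by DESeq2 (0.78, adjusted p = 0.00754). It was also held with a term for the library name series, replicates 4 and 5 against 1 to 3 (0.77, adjusted p = 0.0351). It was lost without sham replicate 2 (0.70, adjusted p = 0.149), sham replicate 3 (0.71, adjusted p = 0.135), sham replicate 5 (0.74, adjusted p = 0.103), FPI replicate 1 (0.58, adjusted p = 0.121) or FPI replicate 2 (0.76, adjusted p = 0.123), and in a fit over all 20 libraries (0.76, adjusted p = 0.545). Border macrophage markers (Mrc1, Cd163, Lyve1, Pf4, F13a1) summed to 18.4 to 451 CPM in sham and 21.9 to 266 CPM in FPI microglia and were lowest in replicates 4 and 5 of both groups, and their part in the Kcnj2 difference was not tested.

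**Figure D3:**
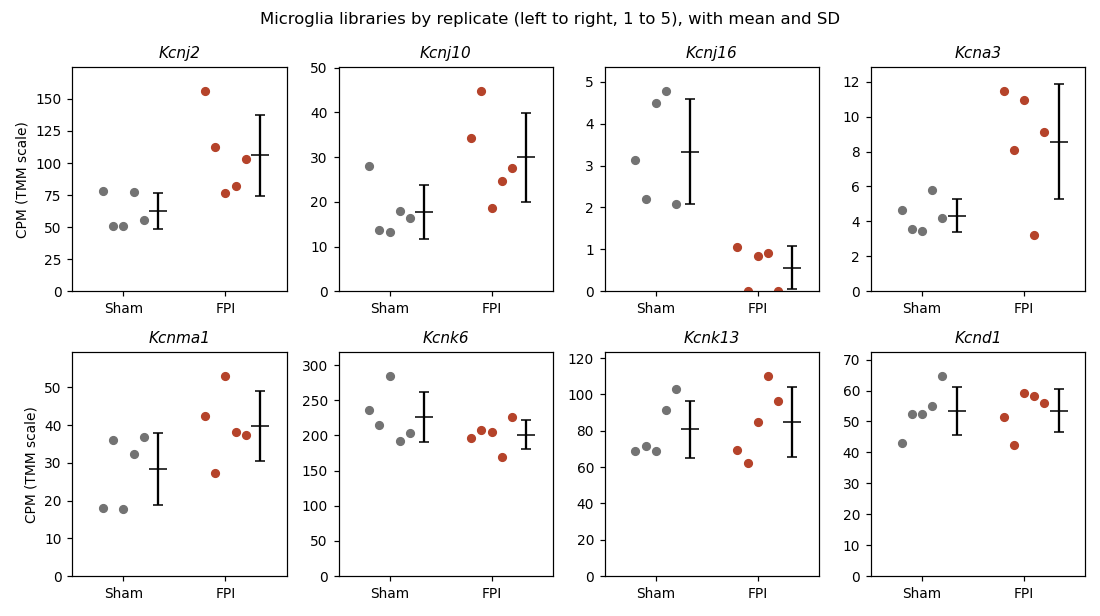
CPM of 8 members in the 5 sham (grey) and 5 FPI (red) microglia libraries, replicates 1 to 5 from left to right, with mean and SD beside them; axes start at 0. Kcnj2 rises from a mean of 62.8 to 106 CPM with overlap, the Kcnj16 groups do not overlap, and Kcnk6, Kcnk13 and Kcnd1 overlap throughout.

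Its neighbour Kcnj16 went the other way without passing the test. Sham microglia had 3.12, 2.20, 4.48, 4.77 and 2.08 CPM and FPI microglia 1.05, 0, 0.843, 0.924 and 0 CPM, so that every FPI library was below every sham library. It was the only tested member whose groups did not overlap, and 1.27% of all genes tested in microglia were lower without overlap. Its fitted log2 fold change was -2.53 with an SE of 0.84 (adjusted p = 0.162), resting on 148 sham and 22 FPI reads. DESeq2 (-2.56, adjusted p = 0.0284) and the fit over all 20 libraries (-2.54, adjusted p = 0.0923) called it. Astrocyte markers summed to 240 to 355 CPM in sham and 283 to 589 CPM in FPI microglia, ranges that overlap. The part of astrocyte RNA in the Kcnj16 values was not tested.

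Kcnj10 was at 28.0, 13.6, 13.2, 17.9 and 16.3 CPM in sham and 34.2, 44.7, 18.6, 24.6 and 27.5 CPM in FPI microglia. These groups overlapped through sham replicate 1 and FPI replicates 3 to 5, and the difference was not called (log2 fold change 0.76, SE 0.26, adjusted p = 0.172). It was called without sham replicate 1 (1.00, adjusted p = 0.0617), without FPI replicate 3 (0.90, adjusted p = 0.0544) and when every gene with at least 1 count was kept (0.75, adjusted p = 0.0696). The 2 libraries highest in Kcnj10, FPI replicates 2 and 1, were also highest in the astrocyte marker sum, at 589 and 558 CPM, and the part of astrocyte RNA in these values was not tested.

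Kcna3 stood at 4.62, 3.59, 3.47, 5.79 and 4.17 CPM in sham and 11.4, 8.11, 10.96, 3.23 and 9.09 CPM in FPI microglia. Of the FPI libraries, 4 lay above all sham libraries and replicate 4 lay below them all (log2 fold change 1.00, SE 0.38, adjusted p = 0.25). Kcnma1 was at 28.3 ± 9.57 CPM in sham and 39.6 ± 9.26 CPM in FPI microglia (log2 fold change 0.51, SE 0.22, adjusted p = 0.375). Counting Kcnj2, Kcnj16, Kcnj10, Kcna3 and Kcnma1, 5 of the 15 members had an unadjusted p below 0.05, against 11.3% of all genes tested in microglia.

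Kcnk6, Kcnk13 and Kcnd1, with Kcnj2 the most abundant microglial members per length, did not pass the test after FPI. Kcnk6 measured 226 ± 36.1 CPM in sham and 201 ± 20.9 CPM in FPI microglia (log2 fold change -0.16, 95% interval -0.41 to 0.10). Kcnk13 measured 80.8 ± 15.8 and 84.7 ± 19.3 CPM, and the interval of its log2 fold change ran from -0.24 to 0.41. For Kcnd1 the means were 53.5 ± 7.72 and 53.5 ± 6.93 CPM, with an interval of -0.27 to 0.31. These 3 intervals lie inside a log2 fold change of 0.6 in either direction. Wider intervals were left for Kcnk12 (log2 fold change -0.33, -1.05 to 0.39), Kcnj9 (-1.27 to 0.15) and Kcnn4 (-1.90 to 0.52).

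In astrocytes none of the 48 tested members was called after FPI by edgeR or DESeq2, where 0.00728% of all 13741 genes tested were called by edgeR. The count was again 0 without FPI replicate 2 or without FPI replicate 5. The sham and FPI libraries overlapped in all 48, against 0.713% of all genes without overlap. At an unadjusted p below 0.05 there were 2 members, Kcne1l and Kcnd3, against 2.32% of all genes. Kcne1l, a small auxiliary subunit on the X chromosome, had 5.98, 4.01, 3.13, 4.93 and 4.68 CPM in sham and 10.1, 9.14, 12.2, 3.64 and 12.9 CPM in FPI astrocytes (log2 fold change 1.11, SE 0.34, adjusted p = 0.999). Here 4 FPI libraries exceeded every sham library and replicate 4 did not. Kcnd3 measured 8.05 ± 3.39 and 13.4 ± 3.85 CPM (log2 fold change 0.76, SE 0.34, adjusted p = 0.999), and the silent subunit Kcns1 had a fitted change of 1.41 on the log2 scale (SE 0.65, adjusted p = 0.999).

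The large astrocytic channels had wide or centred intervals. Kcnj10 was at 831, 501, 470, 533 and 427 CPM in sham and 825, 659, 517, 403 and 410 CPM in FPI astrocytes, a similar span in both groups (log2 fold change 0.06, 95% interval -0.45 to 0.57). Kcnk1 was at 426, 345, 245, 77.5 and 117 CPM in sham and 231, 225, 147, 99.9 and 109 CPM in FPI astrocytes (log2 fold change -0.54, 95% interval -1.38 to 0.30), and without sham replicate 1 the log2 fold change was -0.27. In both groups replicates 4 and 5 were the lowest for Kcnk1, so the spread within groups exceeded the difference between them. For Kcnj16 the astrocytic log2 fold change was -0.08 (SE 0.42).

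**Figure D4:**
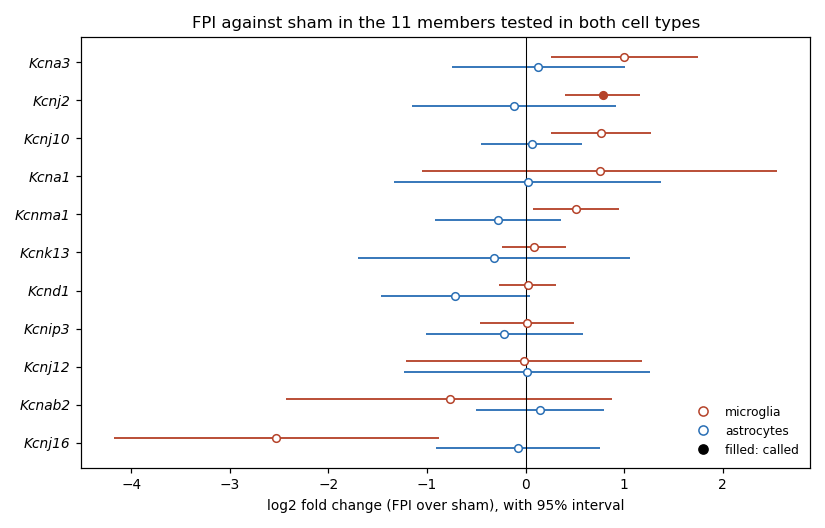
Log2 fold change of FPI over sham with its 95% interval for the 11 members tested in both cell types, microglia in red and astrocytes in blue, from separate edgeR fits of 10 libraries each. Kcnj2 in microglia, at 0.78, is the one filled (called) point.

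Whether FPI acted differently on the members in microglia and astrocytes was tested as an interaction over all 20 libraries. None of the 55 members passed an adjusted p below 0.1 by edgeR, a threshold that 0.199% of all genes passed, and 4 (Kcnj16, Kcnn1, Kcnh5, Kcnt2) had an unadjusted p below 0.05, against 7.02% of all genes. The difference was -2.43 for Kcnj16 (SE 0.78, adjusted p = 0.401), 0.72 for Kcnj10 (SE 0.37, adjusted p = 0.746) and 0.90 for Kcnj2 (SE 0.58, adjusted p = 0.837), on the log2 scale and as microglia minus astrocytes. For Kcnj2 it was 0.27 without sham astrocyte replicate 4. Leaving out the 3 microglia libraries that share a name number with an astrocyte library gave 0.52 for Kcnj2, 0.41 for Kcnj10 and -2.86 for Kcnj16, with no member called. DESeq2 called Kcnj16 (-2.46, adjusted p = 0.0808) and Kcnn1, a small-conductance calcium-activated gene whose 87 reads in FPI microglia came to 52 from replicate 1. So a microglial rise of Kcnj2 was not shown to differ from its course in astrocytes.

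Members also varied several-fold among astrocyte libraries of the same group, and they did so in 3 recognisable ways. Over the 32 members with a mean of at least 5 CPM in astrocytes, the ratio of the highest to the lowest library was 2.06 for Kcnj10 and Kcna2 but 21.0 for Kcna1 and 112 for Kcnmb1. Sham replicate 4 was the lowest library for 10 of the 32 members and FPI replicate 5 for 7. Kcnj8, Kcnmb1, Kcnj12 and Kcne4 were all lowest in FPI replicate 1 and highest in FPI replicate 5. Kcnj8 had 28.3, 132, 90.9, 123 and 205 CPM in sham and 3.92, 94.3, 95.3, 191 and 274 CPM in FPI astrocytes. The pericyte and smooth muscle markers (Pdgfrb, Rgs5, Vtn, Notch3, Anpep, Acta2) also had their lowest sum, 381 CPM, in FPI replicate 1 and their highest, 8709 CPM, in FPI replicate 5.

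One set was high where oligodendrocyte markers were high. Kcna1 was at 112, 30.4, 16.2, 339 and 134 CPM in sham and 162, 157, 81.7, 196 and 33.1 CPM in FPI astrocytes. Kcna1, Kcna6, Kcnq3, Kcnk13 and Kcnj2 all peaked in sham replicate 4, the library with the highest sum of oligodendrocyte markers (Mbp, Mog, Mag, Mobp, Cldn11), 5510 CPM, and the lowest sum of astrocyte markers, 9651 CPM. Kcna1, Kcna6 and Kcnj2 were lowest in sham replicate 3, which also had the lowest oligodendrocyte sum, 431 CPM. Kcnq3 and Kcnk13 were instead lowest in FPI replicate 5, where that sum was 1071 CPM.

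Another set was lower in replicates 4 and 5 than in replicates 1 to 3 of both groups. Kcnk1, Kcnj16, Kcnn2, Kcnip3, Kcnd2 and Kcnt1 had means in replicates 4 and 5 that were 0.374, 0.407, 0.467, 0.409, 0.278 and 0.323 of those in replicates 1 to 3. Astrocyte markers summed to 9651 to 15168 CPM in replicates 4 and 5 and to 18755 to 30038 CPM in replicates 1 to 3. Kcnj10 fell by less, to a ratio of 0.699. How far the other cell types account for the levels of these members was not tested. With astrocytes of replicates 1 to 3 alone, or with a term for replicates 4 and 5, the number of members called after FPI in astrocytes was again 0.

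**Figure D5:**
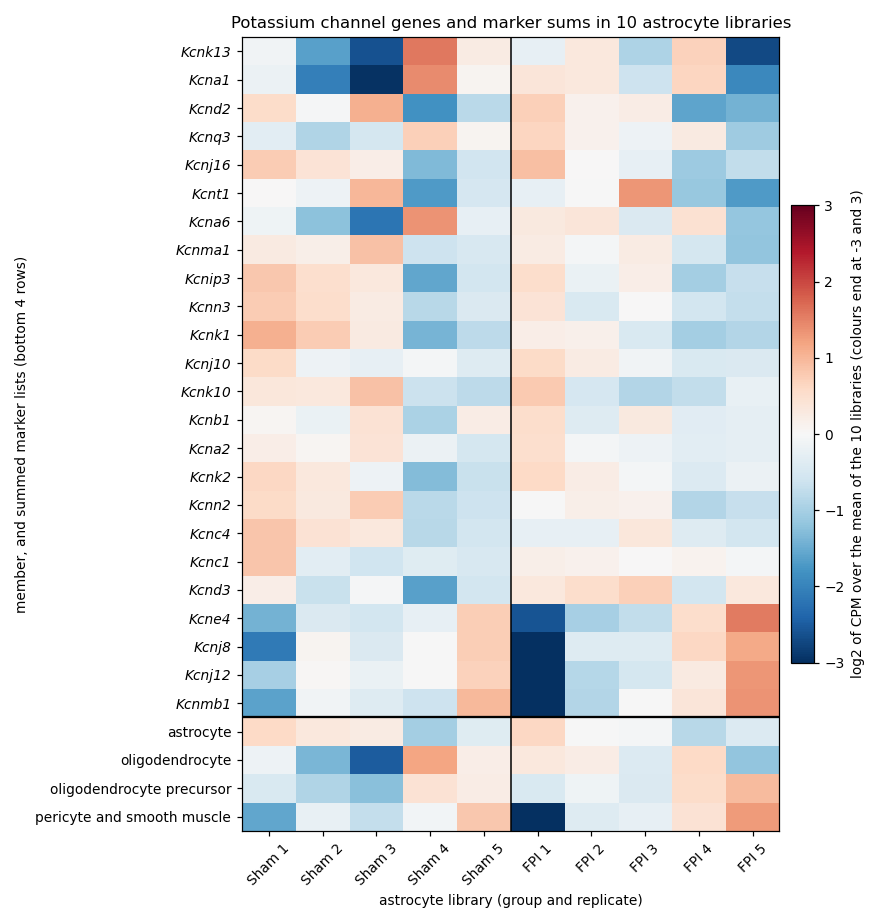
Rows are members with a mean of at least 9 CPM in astrocytes or, in the bottom 4 rows, the summed markers of a cell type; each column is an astrocyte library, sham left and FPI right, and colour is the log2 ratio of CPM to the mean of the 10 libraries, ending at -3 and 3. Kcnj8, Kcnmb1, Kcnj12 and Kcne4 share their lowest (FPI 1) and highest (FPI 5) libraries with the pericyte and smooth muscle row, and Kcna1, Kcna6 and Kcnk13 share their highest (sham 4) with the oligodendrocyte row.

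Genes outside the Kcn symbols that move potassium or anchor its channels were followed as a list of 32, with 24 tested between the cell types. Of these 16 were higher in astrocytes and 1 in microglia, against 37.2% and 27.1% of all genes tested, with a median log2 fold change of -2.84 against -0.13 for all genes. The astrocytic members included Atp1b2 (-6.74), a beta subunit of the sodium pump, the gap junction gene Gja1 (-7.01), the water channel gene Aqp4 (-6.42), and Abcc9 (-6.84), which encodes the partner of Kir6.1. Gja1 and Aqp4 are also in the astrocyte marker list. The microglial one was the potassium-chloride cotransporter gene Slc12a7 (1.99). After FPI, none of 21 list genes tested in microglia was called by edgeR, 6 of them with an unadjusted p below 0.05, against 2.35% and 11.3% of all genes. In astrocytes none of 24 was called, with 0 below that p (0.00728% and 2.32% of all genes).

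A second list held 16 receptors and effectors that act with glial potassium channels, all tested between the cell types. Of these, 13 were higher in microglia and 2 (Stim1, Calm3) in astrocytes, against 27.1% and 37.2% of all genes tested, and the median log2 fold change was 4.69 against -0.13. Among those expressed beside Kcnk13 and Kcnk6 in microglia were P2ry12 (8.84), the purine receptor that drives THIK-1, and Nlrp3 (9.04), the inflammasome sensor that potassium efflux activates. P2ry12 is also in the microglia marker list. Both lists were chosen with earlier results of these data known, so their counts describe the lists only. After FPI in microglia 2 of the 16 were called, against 2.35% of all genes. P2rx4, an ATP-gated cation channel gene, rose (log2 fold change 0.69, SE 0.16, adjusted p = 0.0272) and the ADP receptor gene P2ry13 fell (log2 fold change -0.65, SE 0.17, adjusted p = 0.0493), while P2ry12 (-0.50, SE 0.19, adjusted p = 0.248) and Nlrp3 (-0.05, SE 0.12) were not called. None of the 9 list genes tested in astrocytes was called.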

How the data were processed

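Sequencing libraries of 20 sorted samples had been prepared with a stranded total RNA kit for picogram input and sequenced as paired reads. Per the labels and the study's methods, reads were demultiplexed with bcl2fastq and aligned to mm10 (GRCm38.p6) with HISAT2 2.1.0, and featureCounts is named among the tools. The authors deposited raw counts per Ensembl gene, and the settings for strand and for reads with several hits were not given in the sources used here. The table of 39017 genes was identical to the 20 per-sample files. The study's own tests used other, transcript-based estimates that were not used here.

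From these counts, edgeR 4.0.16 (R 4.3.3) was used with its default low-count filter, TMM factors, a quasi-likelihood test and Benjamini-Hochberg adjustment over all genes tested. Calls took the study's thresholds, 0.1 for the adjusted p and 0.6 for the size of the log2 fold change, and for the interaction at an adjusted p below 0.1. The cell types and the interaction were fitted over 20 libraries, and FPI against sham within each cell type over 10. SE is the log2 fold change over the square root of F, and intervals are 95% and approximate. CPM use TMM library sizes, and exon length is the union of exons in GENCODE M21. The depth of 5623349 to 13110857 counts limits members near the floor of 3 reads per library. The scripts were tested on simulated data.

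Sample groups came from the titles. Replicate numbers were not taken to pair the libraries. The correlation of deviations between equally numbered sham and FPI libraries was -0.07 to 0.09 in microglia and -0.01 to 0.45 in astrocytes. In astrocytes, sham replicates 1, 3 and 4 correlated best with the FPI library of their own number, and replicates 2 and 5 did not. Alternatives were DESeq2 1.42.0, other factors, filters and thresholds, a replicate block, and libraries left out. The members and lists were chosen with earlier results of these data known. Members named were known glial channels, the 3 of highest CPM per kb in each class and cell type, the 5 of largest fold change in each direction between the cell types, and those called or of the 3 smallest p values after FPI. Some others are named where a count needed it. Of the members, 1 is not reported here by name, though it stays in the fits and in counts over all members, and a few genes of the marker and other lists are left out of both. Rows whose symbol starts with KCN in capitals, 5 with 22 counts in all, were left out.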

Additional observations from a re-analysis of the deposited data

Results flagged for a closer look

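Each named member was examined in each group of 5 libraries for a library far from the others (Dixon's test, gap over range above 0.71). Of the 124 groups that were tested, 13 held such a library. Chance alone flags about 1 in 20 groups of normally distributed values. Some flagged groups had no read in most of their libraries, such as Kcne1l and Kcnt1 in FPI microglia. That rate does not hold for them.

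In astrocytes the flagged values of abundant members were high ones. Kcnj10, the Kir4.1 gene, was at 831 CPM in sham replicate 1, against 427 to 533 CPM in the other sham libraries. FPI replicate 1 stood out for the TREK-2 gene Kcnk10 with 19.5 CPM (others 6.23 to 9.75) and for the Kv1.2 gene Kcna2 with 59.5 CPM (others 33.6 to 39.9). This library also had the highest astrocyte marker sum, 30038 CPM, and the lowest pericyte and smooth muscle sum, 381 CPM. Kcng1, a silent subunit gene, was at 7.08 CPM in sham replicate 5, against 2.26 to 2.52 CPM.

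Microglial genes were flagged at low levels in astrocyte libraries. Kcnk6 was at 1.05 CPM in sham replicate 2 and at 2.72 CPM in FPI replicate 5, and Kcnk12 at 0.639 CPM in FPI replicate 5. FPI replicate 5 had the highest microglia marker sum of the astrocyte libraries, 70.5 CPM.

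In microglia the flagged values were of members near the detection limit. Kcnq3 was at 7.12 CPM in FPI replicate 1, against 0.256 to 1.08 CPM in the other FPI libraries. Kcnt1 was at 1.2 CPM in FPI replicate 3 with no read in the others, and Kcne1l was at 1.25 CPM in FPI replicate 2 alone. Kcnj8 was at 2.0 CPM in FPI replicate 4 and Kcnn2 at 4.1 CPM in FPI replicate 5. Kcna1 had 0 CPM in FPI replicate 5, against 1.52 to 1.93 CPM in the others. The cause of these values was not tested.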

How the results depend on the processing

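Between the cell types, 9 members were called higher in microglia and 44 higher in astrocytes. Requiring at least 10 counts in every library left 6 members to test and gave 3 and 2. Leaving out 1 library at a time gave 8 to 9 and 45 to 48. The other settings stayed within 1.5 times of these counts. For FPI in microglia, 1 member was called higher and 0 lower. DESeq2 called 1 lower (Kcnj16), a filter of 1 count in all gave 2 higher (Kcnj2 and Kcnj10), and the fit over all 20 libraries gave 0 higher and 1 lower (Kcnj16). Leaving out 1 library at a time gave 0 to 2 higher and 0 lower. For FPI in astrocytes every setting gave 0. For the interaction DESeq2 gave 1 higher (Kcnn1) and 1 lower (Kcnj16) in microglia and the others gave 0. The FPI log2 fold change in astrocytes ran from -0.15 to 0.22 for Kcnj10 and from -0.51 to 0.12 for Kcnj16 when 1 library was left out, changing sign. The cause of these changes was not tested, other than that the 10-count filter tests fewer members.

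With the replicate number as a block, the counts were 9 and 44 between the cell types, 1 and 0 for FPI in microglia, and 0 for FPI in astrocytes and for the interaction, and Kcnj2 had a log2 fold change of 0.75 (adjusted p = 0.0209). The block changed no call among the members. Over all genes, FPI against sham in astrocytes gave 11 calls with the block and 1 without. Without the 3 microglia libraries that share a name number with an astrocyte library, the counts between the cell types were 10 and 47. Sham and FPI libraries of equal replicate number did not correlate best with each other in every case. With astrocytes of replicates 1 to 3 alone, a setting chosen after seeing the data, the counts between the cell types were again 9 and 44. Members under about 1 CPM rest on few reads, which limits what can be detected in them, although Kcnu1, under 1 CPM in both cell types, was called higher in astrocytes.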
